A study of Mus musculus with 12 samples.

Results

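miR-185 (mmu-miR-185 on the array) is 1 of the 696 mouse miRNAs on the array, 334 of which were detected on at least 1 of 12 arrays and 148 on every array. It was picked by its array name and by its measured course, a rise between days 1 and 3 that then stays. The levels below are therefore a description and carry no test. Each array held RNA of 1 culture of bone marrow-derived osteoclast precursors from C57BL/6 male mice of 6 to 8 weeks, from which cells positive for B220/CD45R or CD3 had been removed. All cultures received 30 ng/ml each of M-CSF, a growth factor of the macrophage lineage, and RANKL, the cytokine that drives osteoclast formation, and 4 cultures each were collected at days 1, 3 and 5. No group without RANKL was analysed here, so time in culture and the response to RANKL cannot be told apart. The labels give each group as 4 samples and do not say whether these came from separate mice.

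Osteoclasts are the multinucleated cells that resorb bone, and they form by fusion of myeloid precursors under M-CSF and RANKL. A miRNA is a short RNA cut from a hairpin precursor, which guides repression of messenger RNAs paired to its seed near the 5′ end. miR-185 has been reported in other cells to repress RhoA and Cdc42, small GTPases that organise the actin cytoskeleton, and the DNA methyltransferase Dnmt1, and osteoclasts attach to bone through rings of actin. None of these targets was measured here.

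The sequences that define the measurement are the precursor and the array's probes. The RefSeq hairpin of Mir185 lies on the minus strand at chr16:18327401-18327465 (GRCm38.p6), inside Tango2, a protein-coding gene on the same strand. It is 65 bases long, and the capitals mark the stretch that the longer of the 2 probes covers, bases 12 to 28:
Mir185 hairpin: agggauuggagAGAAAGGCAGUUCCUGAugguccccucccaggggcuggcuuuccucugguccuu
Both probes are complementary to the 5′ arm, and they differ by the 1 base in capitals at the 3′ end of the longer one:
probe of 16 bases: tcaggaactgcctttc
probe of 17 bases: tcaggaactgcctttcT
The array lists them on mm9 chromosome 16, from 18327507 to 18327521 and from 18327506 to 18327521. These positions are on another build than the RefSeq ones and cannot be set against them. The product of the other arm, miR-185-3p, was not analysed here. It is shown, with its seed (bases 2 to 8) in capitals, because no probe covers it:
miR-185-3p: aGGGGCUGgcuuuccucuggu

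miR-185 rose early by each processing tried, whereas what it did between days 3 and 5 depended on how the arrays were scaled. The total gene signal, the scanner's background-subtracted brightness summed over the probes of a miRNA, was 989, 862, 908 and 713 on the 4 day 1 arrays. At day 3 it read 2732, 2333, 2458 and 2633. At day 5 it read 3880, 3215, 3381 and 3023. As scanned, the 3 days did not overlap and stood in the order day 1, day 3, day 5, with means of 868 ± 116, 2539 ± 178 and 3375 ± 367 (SD, n = 4). The day 3 mean was 2.92 times and the day 5 mean 3.89 times that of day 1, and day 5 was 1.33 times day 3.

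Quantile normalization, which gives every array the same distribution of values, kept the direction of the first step, made it larger and turned the second. On this scale miR-185 was at a log2 signal of 9.29, 9.42, 9.36 and 9.42 at day 1. At day 3 it stood at 11.91, 11.91, 11.83 and 11.91, and at day 5 at 11.71, 11.78, 11.67 and 11.74. Again no 2 days overlapped, but day 3 was now the highest. The day means were 9.37 ± 0.06, 11.89 ± 0.04 and 11.73 ± 0.05 (SD, n = 4), which put day 3 above day 1 by 2.51 and day 5 above day 1 by 2.35 on the log2 scale, or 5.71-fold and 5.11-fold. Day 5 minus day 3 was -0.16, with a standard error of 0.06 from the limma fit. Normalized in this way, 107% of the rise seen at day 5 was present at day 3.

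**Figure D1:**
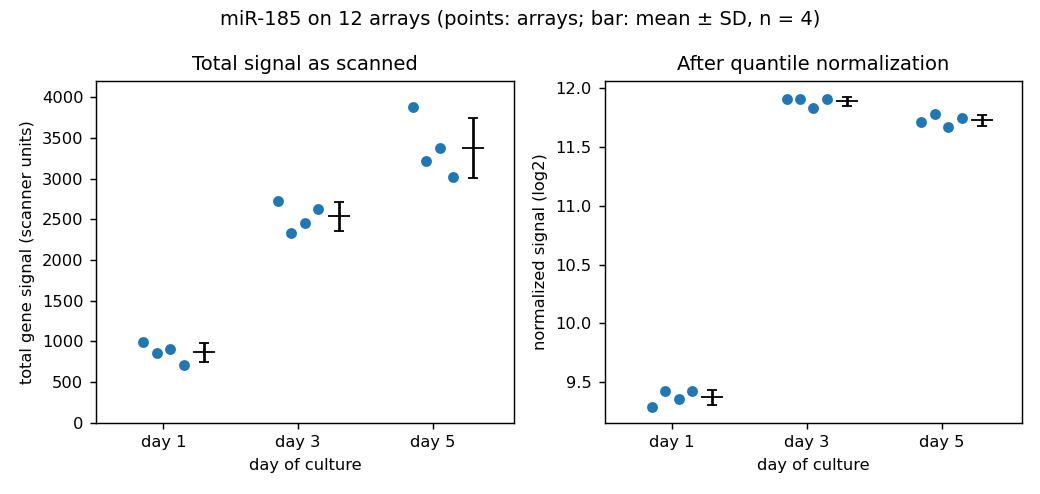
Signal of miR-185 on each of the 12 arrays by day of culture, as scanned (left, total gene signal in scanner units) and after quantile normalization (right, log2). Points are arrays and the bar beside them is the mean ± SD of 4 arrays: as scanned day 5 is highest (mean 3375 against 2539 at day 3), and after normalization day 3 is highest (mean 11.89 against 11.73).

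The small spread after normalization follows partly from its construction. It replaces each signal with a value set by its rank within the array, and miR-185 ranked between 123 and 127 among the 334 miRNAs at day 1, between 63 and 65 at day 3 and between 66 and 69 at day 5. On 3 of the day 3 arrays the rank was 63, and these received the identical value. Such a rank is a position within 1 array and no measure of abundance against other miRNAs, whose probes differ in brightness.

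The signal summed over each array was lower at day 3, and that moves with the difference between both scales. Whether the drop lay in the scan, the slide or the RNA was not tested. The summed signal of detected miRNAs was between 55.1% and 64.2% of the day 1 mean on day 3 arrays and between 74.2% and 89.2% on day 5 arrays. Positive control features spotted by the manufacturer also averaged less at day 3 than at day 1 (one of them 12788 at day 1, 9918 at day 3 and 12367 at day 5). Of the 3 features used, 2 averaged more at day 5 than at day 3, and the third did not, with 42024, 35546 and 34748 at days 1, 3 and 5. Scaled to 3 such features, a choice made after seeing the data, miR-185 stood 1.88 above day 1 at day 3 and 2.10 above it at day 5 on the log2 scale, so that day 5 was 0.23 above day 3 and 89.3% of the day 5 rise was present at day 3. Without any scaling the share was 79.3%. Scaled to the median of miRNAs detected on all arrays it was 100%, with day 5 minus day 3 at -0.010, and scaled to their 75th percentile it was 117%. The day 3 arrays were on slide 2 and scan 2, and all day 1 and day 5 arrays on slide 1 and scan 1. Day 3 and its slide therefore cannot be told apart in either step, while day 5 minus day 1 is a comparison within 1 slide and was between 1.95 and 2.35 under all 12 alternatives other than leaving out arrays.

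**Figure D2:**
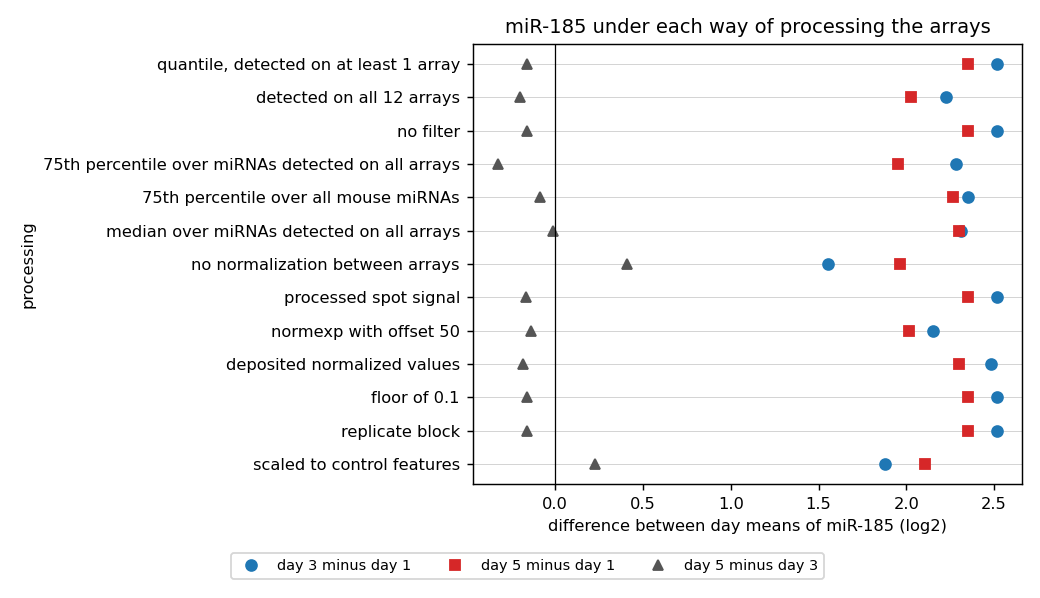
Differences between the day means of miR-185 (horizontal axis, log2) under each processing (vertical axis). Circles and squares, the differences from day 1, stay between 1.56 and 2.52; triangles, day 5 minus day 3, lie between -0.33 and 0.41 and are above 0 only without normalization and when scaled to control features.

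The 2 probes gave the same course. The longer probe was brighter on every array, by a factor of 1.40 to 1.61 at day 1, 1.55 to 1.58 at day 3 and 1.47 to 1.51 at day 5. Without normalization, day 3 minus day 1 was 1.52 for the shorter and 1.58 for the longer probe on the log2 scale, and day 5 minus day 3 was 0.45 and 0.38. All 240 spots of miR-185 over the 12 arrays were well above background and none was saturated. The 10 spots of a probe on an array varied by 3.96% to 14.4% (coefficient of variation), so spot error was small beside the change between days 1 and 3. The scanner software marked 6 of the 240 spots as outliers, 2 on each day.

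Against the background of all miRNAs, the early change of miR-185 was large and its late change small. Over the 334 miRNAs tested with limma, 62.9% changed over time (adjusted p under 0.01), and with a log2 difference above 1 as well 15.6% were higher and 19.5% lower at day 3 than at day 1. At day 5, 24.3% were higher and 22.5% lower than at day 1. Between days 3 and 5, 10.5% changed in either direction. Among the 148 miRNAs detected on every array, miR-185 had the 5th largest normalized difference of day 3 from day 1 and the 9th largest of day 5 from day 1. Of the 24 of these called higher at day 3, miR-185 was 1 of 5 with a day 5 mean below that of day 3. Day 5 minus day 3 over the 24 ran from -0.38 to 0.91, with a median of 0.38. Of the 40 called higher at day 5, miR-185 was 1 of 11 with 90% or more of the rise present at day 3, where the median share was 71.6%. These positions restate the course by which miR-185 was picked, and without normalization the median of all 334 moves from 0 to 0.36 for day 5 minus day 3 and from 0.18 to -0.77 for day 3 minus day 1.

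**Figure D3:**
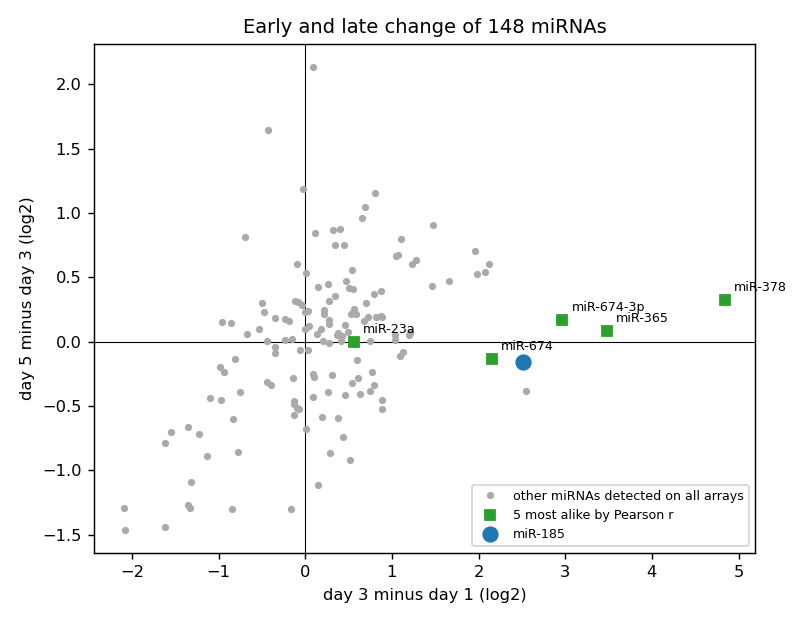
Normalized change between days 1 and 3 (horizontal, log2) against that between days 3 and 5 (vertical, log2) for the 148 miRNAs detected on all arrays. miR-185 (blue circle, 2.51 and -0.16) lies far to the right and near the horizontal line, beside miR-674, miR-674-3p and miR-365; miR-378 lies farther right and miR-23a close to the origin.

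The miRNAs with the course most like miR-185, by Pearson's r over the 12 normalized log2 values, were miR-23a (r = 0.998), miR-378 (r = 0.993), miR-365 (r = 0.992), miR-674-3p (r = 0.989, named miR-674* on the array) and miR-674 (r = 0.989). These correlations describe 12 arrays that share 3 days, 2 slides and 1 normalization, and they carry no test. A high r says nothing of the size of a change. miR-23a, whose normalized value was identical on all arrays of a day, differed from day 1 by 0.56 at both later days, and without normalization its day 3 mean was lower than at day 1 by 0.25 on the log2 scale. miR-378, which is encoded within the coactivator gene Ppargc1b, showed the largest step of the 5. Its total gene signal went from a mean of 1063 ± 119 at day 1 to 16978 ± 1015 at day 3 and 28479 ± 2516 at day 5 (SD, n = 4), a normalized log2 difference of 4.84 and then 0.33. miR-365 followed with 3.48 and 0.09, and miR-674-3p with 2.97 and 0.17. Of these 5, the nearest to miR-185 in the size of both steps was miR-674, with 2.15 at day 3 and 2.01 at day 5, both differences from day 1. Over all 148, miR-5097 was nearer in size, with 2.55 and 2.17, at a Pearson's r of 0.953. All 5 were higher at day 5 than at day 3 without normalization, by 0.32 to 0.83 on the log2 scale, as was miR-185 with 0.41.

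**Figure D4:**
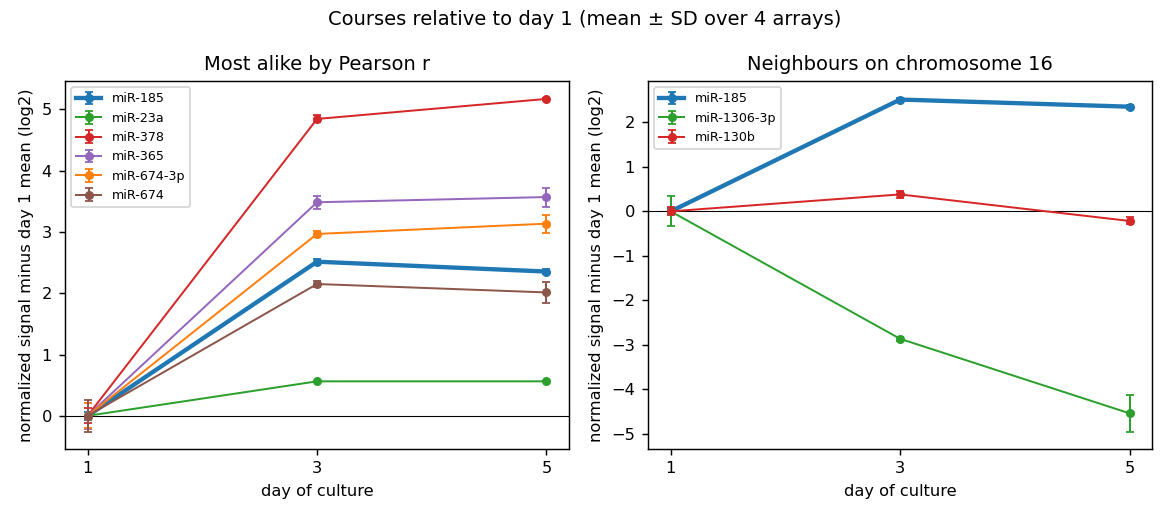
Normalized log2 signal minus the day 1 mean by day of culture, as mean ± SD of 4 arrays, for miR-185 with the 5 most alike miRNAs (left) and with miR-1306-3p and miR-130b, which lie near it on chromosome 16 (right). The alike miRNAs step up at day 3 and then change little, while miR-1306-3p falls to -2.87 at day 3 and -4.54 at day 5.

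The nearest array miRNA on chromosome 16 moved the opposite way. miR-1306-3p comes from Mir1306, at chr16:18284239-18284317 (GRCm38.p6) within the bounds of Dgcr8, a gene for a subunit of the Microprocessor complex that cuts miRNA hairpins from their primary transcripts, and 43083 bases separate its hairpin from that of Mir185. Its mature sequence is given, with the seed in capitals, since its seed differs from those shown above:
miR-1306-3p: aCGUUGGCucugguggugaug
Its total gene signal was 8285, 7322, 4774 and 5233 at day 1, then 589, 463, 474 and 505 at day 3. At day 5 it was 327, 207, 250 and 154, the last on an array where it was not detected. The days did not overlap. After normalization it fell by 2.87 ± 0.21 (SE) between days 1 and 3 (limma adjusted p = 9.53e-07) and fell by 4.54 ± 0.21 between days 1 and 5 (adjusted p = 1.27e-08). miR-130b, the next neighbour to be detected on all arrays, lies 1203281 bases away on mm9. It read 1545 to 2152 at day 1, 999 to 1173 at day 3 and 960 to 1197 at day 5 as scanned, and its normalized differences from day 1 were 0.38 at day 3 and -0.22 at day 5, neither of which passed the threshold on size. miR-301b, beside miR-130b, was detected on 2 of 12 arrays and gave no usable level.

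Of 29 array miRNAs with a listed position on chromosome 16, 23 were tested. Without miR-185, 6 of the other 22 were higher at day 3 than at day 1 and 6 were lower, beside 15.6% and 19.5% of all 334. At day 5, 7 were higher and 9 lower than at day 1, beside 24.3% and 22.5% of all. The 7 include miR-301b, which was detected on 2 arrays, both of day 5. It entered the fit only through that day, so its call carries no weight. The median of the 22 was 0.38 for day 3 minus day 1, beside 0.18 over all 334. With miR-185 counted, the 7 higher at day 3 became 4 without normalization and with normexp background correction. They became 4 of the 14 tested when normalization was redone on only miRNAs detected on all arrays. The 6 others that rose were miR-484, miR-365, miR-193b, miR-28, miR-99a and miR-125b-5p. The smallest change was 1.04 for miR-484 and the largest measured on all arrays was 3.48 for miR-365, 1 of 2 among the 6 that the array also lists on another chromosome, with miR-125b-5p. miR-193b, close to miR-365 on the chromosome, was detected on none of the day 1 arrays and on all day 3 and day 5 arrays. Of those lower at day 3, miR-1945 was detected on 1 array, at day 1, and miR-691 on 3 arrays. miR-155, also lower, was detected on none of the day 3 arrays. Such calls depend on the days of detection, so the counts carry no test. The shares over all 334 hold such miRNAs too.

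Within the Mir185 hairpin, bases 8 to 14 read ggagaga, a run that starts 4 bases before the stretch covered by the longer probe. Of 1679 mature miRNA names in the RefSeq table, 2 carry these letters as their seed, miR-882 and miR-3473a, and of these the array measured miR-882. The RefSeq table holds no mature entry for the 5′ arm product of Mir185, so that product is not among the names counted. miR-882 was chosen as a sharer of the seed of miR-185. It is shown with its seed in capitals because these letters are the ones found in the hairpin:
miR-882: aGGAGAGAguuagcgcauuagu
miR-882 was detected on all day 1 arrays, at a total gene signal of 57.6, 157, 67.6 and 81.4, and on none at days 3 and 5. With the later days set at the lowest signal detected on their arrays, it was at least 1.78-fold lower at day 3 and at least 1.94-fold lower at day 5 than at day 1. No p-value is given, since miR-882 entered the fit only through day 1 and lay at the floor on all later arrays. With normexp background correction, day 3 minus day 1 was smaller, at -0.53 (log2). The day 1 signals of miR-882 were close to the limit of detection.

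Other miRNAs reported to repress the targets of miR-185 had mixed courses. Of 8 miRNAs listed for RhoA or Cdc42, 4 were detected. Between days 1 and 3, 1 of the 4 rose and 1 fell, beside 15.6% higher and 19.5% lower of all 334. miR-29b rose by 1.11 ± 0.15 (SE, log2, adjusted p = 0.000116). miR-155, known from activated immune cells, was detected on all day 1 arrays and none of day 3, and was at least 4.55-fold lower there. The limma adjusted p of 1.21e-05 is from the fit to the normalized values and does not test that bound. miR-155 was detected on 3 of 4 day 5 arrays. Its dip at day 3 cannot be told apart from the slide that held all day 3 arrays. miR-29a and miR-29c differed by 0.11 and 0.47 from day 1 to day 3. At day 5 miR-29a, miR-29b and miR-29c stood 0.95, 1.90 and 0.95 above day 1, of which miR-29b passed the threshold on size, and miR-155 was lower. The median of the 4 was 0.29 for day 3 minus day 1 and 0.95 for day 5 minus day 1, beside 0.18 and 0.11 over all 334. Of 5 miRNAs listed for Dnmt1, miR-152 rose by 1.20 ± 0.18 at day 3 (adjusted p = 0.00022) and by 2.57 at day 5. It was detected on 2 of 4 day 1 arrays and 3 of 4 day 3 arrays, so these values rest partly on signals below detection. miR-126-3p, a miRNA of megakaryocytes and endothelium, was at least 18.0-fold lower at day 3 and was detected at day 1 only. It entered the fit only through that day, so no p-value is given for it. miR-342-3p rose between days 3 and 5, by 1.65 ± 0.13 (adjusted p = 9.85e-06), after a difference of -0.43 at day 3. The median of the 5 was -0.15 for day 3 minus day 1 and 0.70 for day 5 minus day 1, beside the same 0.18 and 0.11 over all 334.

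Of 13 other miRNAs that the study lists as rising also in other osteoclast profiles, a list chosen on these samples and so no independent evidence of direction, 10 were higher at day 3 and 12 at day 5 than at day 1, beside 15.6% and 24.3% of all 334. They were all detected on every array. Their normalized day 3 minus day 1 ran from -0.03 for miR-146a to 4.84 for miR-378, with a median of 1.47. Day 5 minus day 3 ran from 0.07 for miR-98 to 1.19 for miR-146a with a median of 0.53, so every one of these 13 values was above the -0.16 of miR-185. miR-146a, a miRNA induced by NF-κB, was the only one to pass the threshold in that last comparison (adjusted p = 0.000915).

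Markers of other cells moved with the days. The summed total gene signal of miR-451 and miR-144, which mark erythroid cells, was 29020 to 57393 at day 1, 810 to 1771 at day 3 and 124 to 295 at day 5. Leaving them out, the mean summed signal of detected miRNAs was 59.9% of day 1 at day 3 and 82.7% at day 5, against 58.5% and 80.7% with them. The lymphoid list (miR-150, miR-181a and miR-181b) summed to 2471 to 3336 at day 1, 1267 to 1525 at day 3 and 1594 to 2026 at day 5, with miR-150 detected at day 1 only. These sums are not normalized. After normalization the list was mixed: miR-181a differed from day 1 by -0.96 at day 3 and -0.80 at day 5, and miR-181b by 0.79 and 0.45. Of 5 miRNAs of stromal cells, 4 were higher at day 5 than at day 1, beside 24.3% of all 334, and the sum of the 5 was 494 to 896, 403 to 529 and 2432 to 3545. Among the 4, miR-199a-3p and miR-199a-5p were detected on all arrays of days 1 and 5. miR-143 was detected on 3 arrays, all of day 5, and miR-214 on 1 array of day 1 and 3 of day 5. The calls for miR-143 and miR-214 therefore rest on day 1 signals mostly below detection. The myeloid miRNAs miR-223, miR-142-3p and miR-142-5p were detected on all arrays, at a sum of 101360 to 121056, 54177 to 69194 and 77799 to 95580. None of these 3 passed the size threshold between days after normalization, while miR-223 changed over time (-0.44 at day 3 and -0.43 at day 5 from day 1). The array measures no messenger RNA, so the identity of the cells as osteoclasts cannot be checked on it. In such bulk RNA a change in the share of cells that carry miR-185 and a change in its amount per cell cannot be told apart. The part of other cell types in its rise was not tested.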

How the data were processed

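The members and lists used here were chosen with earlier results of these data known. Total RNA of each culture was hybridised to a 1-color (Cy3) Agilent array. Per the file headers, Feature Extraction 9.5.3.1 gave background-subtracted spot intensity, the total gene signal and detection flags. The authors' normalized log2 values, deposited for the same arrays, were an alternative. The 14635 spots of an array include 715 control spots. For each of 334 miRNAs detected on at least 1 array, the total gene signal was quantile normalized, set to at least 1 and put on the log2 scale. Days were compared in 1 limma 3.58.1 fit (R 4.3.3) without covariates, with Benjamini-Hochberg adjustment over all 334, after tests on simulated data. A call needed an adjusted p under 0.01, for differences also over 1 on the log2 scale. The number of arrays limits the precision, and p-values measure the spread between samples, which may be technical. The 3 days share replicate numbers. Deviations from the day means of arrays with the same number correlated at 0.27 to 0.61 (days 1 and 3), 0.27 to 0.78 (days 3 and 5) and 0.087 to 0.56 (days 1 and 5). The labels do not say whether the numbers pair the days. The main fit left them out, and the replicate block, an alternative, spanned all 3 days. Alternatives were other filters, scalings, spot signals, floors and thresholds, 1-way ANOVA as in the study's methods, a replicate block and leaving out each array. Where a miRNA was not detected on any array of a day, a bound was taken against the lowest signal detected on each array. The limma fit used the normalized values instead, so its p-values do not test these bounds. Named miRNAs were miR-185, seed sharers, the 3 nearest array miRNAs on chromosome 16, the 5 with the highest Pearson's r among those detected on all arrays, and from each list at most 4 members including the largest and smallest day 3 difference. The 6 risers on chromosome 16, miR-5097 and the day 5 examples were added after their values were seen. Of the erythroid list, miR-144* and miR-486 were not analysed here. Mature and hairpin sequences are RefSeq's (GRCm38.p6), matched by name; probes are the array's.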

Additional observations from a re-analysis of the deposited data

Results flagged for a closer look

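In 28 sets of 4 arrays examined (normalized values of the named miRNAs by day, and the unnormalized log2 signal of miR-185), 5 held an array far from the other 3. Chance gives about 1 in 20 for values without ties. Normalization and the floor made ties here, so the count cannot be set against that rate. For miR-185 it was the day 3 array with a normalized log2 signal of 11.83, beside 3 arrays at the identical value of 11.91; the 4 unnormalized day 3 signals held no such array. For miR-301b, near the detection limit, it was a day 1 array at 3.74, beside 3 arrays at the floor, and a day 3 array at 0. For miR-378 it was a day 5 array at 14.85, beside 3 arrays at the identical value of 14.81, and for miR-674 a day 5 array at 9.18.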

How the results depend on the processing

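The early rise of miR-185 kept its direction under every alternative run; its late change did not. Day 3 minus day 1 of miR-185 (2.51, log2) was 2.23 over miRNAs detected on all 12 arrays, 2.28 and 2.35 when scaled to the 75th percentile of miRNAs detected on all arrays or of all mouse miRNAs, 2.31 by their median, 1.56 without normalization, 2.15 with normexp and 1.88 with control features. Day 5 minus day 1 (2.35) was in the same order 2.03, 1.95, 2.26, 2.30, 1.96, 2.01 and 2.10, and 2.30 in the deposited values. Day 5 minus day 3 (-0.16) was -0.33 and -0.087 at the 75th percentile of miRNAs detected on all arrays or of all, and -0.010 by the median, and it turned to 0.41 without normalization and to 0.23 with control features; the cause was not tested. With the replicate block miR-185's differences stayed at 2.51, 2.35 and -0.16, and the block changed no count by over 1.5 times (206 miRNAs changed over time). Leaving out each array in turn gave 2.48 to 2.54, 2.31 to 2.38 and -0.18 to -0.14 for miR-185. The same gave 189 to 218 miRNAs changed over time, 47 to 52 higher at day 3, 71 to 80 higher at day 5 and 29 to 37 changed between days 3 and 5. The 210 changed over time became 114 with a filter for miRNAs found on every array, after which normalization was redone. In the deposited values they were 138 of the 202 tested. Counts with that filter are over 148 miRNAs and those in the deposited values over 202, beside 334 in the main fit. A lower count there is therefore not by itself a lower share. The 52 higher at day 3 became 14 with that filter, 24 without normalization, 27 with normexp, 33 in the deposited values and 29 with control features. The 81 higher at day 5 became 28 with that filter, 48 each at the 75th percentile of miRNAs detected on all arrays, without normalization and in the deposited values, 49 with normexp and 52 with control features. The 35 changed between days 3 and 5 became 14 with that filter and 18 with normexp. Upward calls were 44.4% of those at day 3 against day 1, and 20.5% without normalization. Of day 5 against day 3 they were 57.1%, and 93.9% without normalization, 81.1% with control features, 29.4% at the 75th percentile and 19.4% in the deposited values. Of the 5 miRNAs most like miR-185, 4 remained with the 75th percentile and 1 (miR-674) when likeness was the distance between the changes. A signal near the detection limit bounds what can be said of miR-882.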
